A study of Mus musculus with 12 samples.

Results

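The arginine metabolism genes described here are Arg1, Arg2, Nos2, Slc7a2 and Ass1, 5 of 32285 genes in the deposited feature list, and they were followed in myeloid cells of mouse melanoma tumours. All 5 were present in each of the 6 count matrices. A myeloid cell was defined by its counts: at least 1 UMI (unique molecular identifier, a count of 1 captured transcript) of Tyrobp, at least 1 of Lyz2, and none of Cd3e or Cd3g. The definition held 6968 of 48194 kept tumour cells (14.5%). The same cells were split by Ly6c2 (at least 2 UMIs), a surface protein gene of inflammatory monocytes, and by the sum of C1qa, C1qb and C1qc (at least 3 UMIs), complement genes of tissue macrophages. This gave 1987 Ly6c2-high cells, 2436 C1q-high cells, 967 cells with both and 1578 with neither. None of the 5 arginine genes was used to choose the cells.

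The tumours grew in mice from 5 melanoma lines, SCC31, SCC32, SCC35, SCC37 and SCC40. The outcome listed with the hashtags is rejected for SCC31 and SCC40 and non-rejected for the other 3 lines. Dissociated tumours were labelled with antibody hashtags, sorted live and sequenced with a 10x 5′ kit, with 2 or 3 tumours per line and day. Days 6, 10 and 16 were sampled in every line and day 20 in the non-rejected lines. No further treatment, and no strain, sex or age of the mice, is given in the sources used here. Tumours 1 and 2 of each line came from a library of that line alone, so line and library cannot be told apart there. Tumours numbered 3 (SCC31, SCC35 and SCC40) shared 1 further library, the mix library, in which lines can be compared directly. The table lists a mouse for each tumour and repeats none within a line, while 13 pairs of mouse and cage number are listed for more than 1 line.

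Arginine is a shared substrate. The arginases split it into urea and ornithine, which feeds polyamine and proline synthesis: Arg1 encodes the cytosolic arginase and Arg2 the mitochondrial one. Nos2 encodes the inducible nitric oxide synthase, which turns arginine into nitric oxide and citrulline. Slc7a2 encodes a cationic amino acid transporter that brings arginine into the cell, and Ass1 encodes argininosuccinate synthase, which starts the rebuilding of arginine from citrulline. In macrophages, Arg1 is a familiar gene of interleukin 4 and hypoxia responses and Nos2 of interferon gamma and microbial responses. Uptake of arginine by myeloid cells is known to limit T cells in tumours.

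The genes lie at 10:24915221-24927484 on the minus strand (Arg1), 12:79130777-79156301 on the plus strand (Arg2), 11:78920787-78960254 on the plus strand (Nos2), 8:40862396-40922308 on the plus strand (Slc7a2) and 2:31470207-31520672 on the plus strand (Ass1). These positions are from the GENCODE M21 annotation of GRCm38 (mm10). The arginase pair is shown as sequence because a shared stretch could have put reads of one gene on the other. Over 958 aligned bases of coding sequence, 64.9% were identical, and the longest run common to both was 12 bases, at coding positions 523 to 534 of Arg1 and 580 to 591 of Arg2. The stretches below, from the GENCODE M21 transcripts, run 5′ to 3′ on the coding strand and hold that run, marked by capitals, with 30 bases on each side. Positions count from the A of the start codon.
Arg1: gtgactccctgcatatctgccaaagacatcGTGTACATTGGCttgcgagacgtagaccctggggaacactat
Arg2: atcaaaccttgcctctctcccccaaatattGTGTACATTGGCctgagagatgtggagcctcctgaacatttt
The longest runs that Nos2 shared with its paralogs were 20 bases (Nos1) and 22 bases (Nos3), and Slc7a2 shared 23 bases with Slc7a1.

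The cells carried monocyte and macrophage genes. Cd14, a monocyte surface receptor gene, was detected in 64.0% of them, Csf1r, the receptor gene for macrophage growth factor, in 55.1% and Ccr2, the monocyte chemokine receptor gene, in 39.3%. All 12 genes of the macrophage and monocyte list were detected, with a summed level of 7656 CPM (UMIs of the genes scaled to the total UMIs of the cells summed, counts per 1e6). The neutrophil list summed to 125 CPM, with Csf3r, its most frequent gene, in 12.5% of cells (45.6 CPM), S100a8 in 1.06% and Ly6g in none. The dendritic list summed to 109.9 CPM, with Fscn1, its most frequent gene, in 3.56% of cells and Flt3 in 0.861%. Of day 0 cells, which had no mouse, 9 of 7049 met the definition. Of the 43 tumours, 37 had at least 20 myeloid cells and entered the comparisons, with 51 to 449 cells and 158897 to 2609000 UMIs each. SCC31 entered with the 2 mix-library tumours only: its other tumours held 9 cells or fewer, and the day 16 tumours none. Of the barcodes of the smaller library of each pair, 1.73% to 3.47% occurred in both.

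Ass1 was the gene found in the largest share of myeloid cells (40.8%), and the other 4 genes were found in few. Arg1 was detected in 8.25% of the cells, Slc7a2 in 4.95%, Nos2 in 4.62% and Arg2 in 4.09%. Arg1 transcripts were concentrated: the 69 cells with the most (1% of the cells) held 49.3% of all Arg1 UMIs, the highest cell had 63, and 237 of the 575 positive cells had 1. Nos2 and Slc7a2 were also uneven, with 47.0% and 44.0% of their UMIs in 1% of the cells, whereas the highest Arg2 count in a cell was 4. For Ass1 the same share of cells held 11.2%.

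T cells and cells without Ptprc (the leukocyte gene CD45) were set beside the myeloid cells to gauge free RNA. Both groups were chosen without Tyrobp UMIs, and the cells without Ptprc also without Lyz2 UMIs. That choice removes cells that took up free myeloid RNA, so their values can understate the background in myeloid cells. In 2243 T cells (at least 2 UMIs of Cd3e and Cd3g, none of Tyrobp) Arg1 was at 2.89 CPM (95% exact Poisson interval 1.76 to 4.46), against 107.7 (103.4 to 112.2) in myeloid cells. Nos2 was at 1.16 CPM in T cells against 25.7 in myeloid cells, and Slc7a2 at 1.01 against 24.4. Arg2 had no UMI in 2243 T cells, which allows up to 0.134% of cells with a UMI and sets no limit on the share of cells that express the gene, and it stood at 14.4 CPM in myeloid cells. The median depths were alike, 2064 UMIs per T cell and 2253.5 per myeloid cell. In 30228 tumour cells without UMIs of Ptprc, Tyrobp, Lyz2, Cd3e or Cd3g, with a median of 5259 UMIs, Arg1 was at 1.18 CPM and Arg2 at 0.110 CPM. Ass1 differed from the rest: it was detected in 16.8% of T cells (91.0 CPM), in 35.8% of the cells without Ptprc (125.1 CPM) and in 39.5% of the corresponding day 0 cells (199.9 CPM). After cells with at least 1000 UMIs were thinned to 1000, Ass1 was found in 23.1% of myeloid cells, 8.38% of T cells and 11.4% of cells without Ptprc. Cells with fewer UMIs, 811 myeloid and 239 T cells, were left out of the thinned shares. The share of the myeloid Ass1 level that free RNA of other cells makes up was not tested. Intervals and limits from counts cover counting error only.

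**Figure D1:**
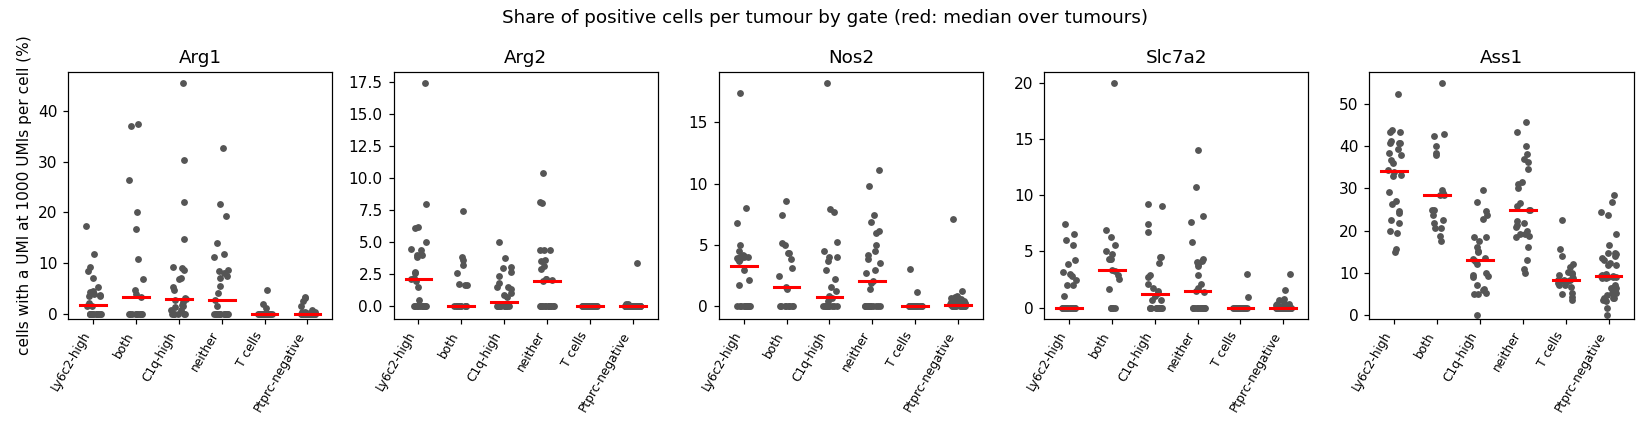
Share of cells with at least 1 UMI of each gene after thinning to 1000 UMIs per cell (vertical axes, percent, a scale per panel), by gate (horizontal axis). A point is a tumour with at least 20 cells of 1000 UMIs or more in the gate, and the red line is the median over tumours. Arg2 was at 0 in every tumour of the T cell gate, while Ass1 was above 0 there in every tumour (3.45% to 22.5%).

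Arg1, the cytosolic arginase gene, fell from day 6 to day 20 in SCC35, and its highest level in any tumour was that of SCC31 at day 10. In SCC35 the 3 day 6 tumours had 159.4, 145.1 and 672 CPM, the day 10 tumours 42.1, 6.54 and 22.2 CPM, the day 16 tumours 9.77 and 8.53 CPM and the day 20 tumours 25.04, 0 and 16.3 CPM. Every day 6 tumour of SCC35 lay above every later one. In SCC32 the day 6 tumours had 118.3 and 189.2 CPM, the day 10 tumours 163.8 and 27.0 CPM, the day 16 tumours 0 and 5.03 CPM and the day 20 tumours 35.5 and 0 CPM, so that day 6 and day 20 did not overlap. In SCC37 the pairs were 225.6 and 74.8 CPM at day 6, 68.7 and 242.4 at day 10, 109.9 and 40.9 at day 16, and 110.2 and 77.6 at day 20, and all 4 days overlapped. SCC40 had 26.7, 0 and 39.6 CPM at day 6, 0, 0 and 5.21 at day 10 and 0 and 1.67 at day 16. The SCC40 values at days 10 and 16 lay within the range of T cells per tumour (0 to 15.1 CPM), and a count of 0 in a tumour of any line allowed 2.68 to 18.9 CPM. SCC31 had 620.1 CPM at day 6 and 1082 CPM at day 10, 1 tumour each.

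The first and last sampled days were then compared by edgeR's quasi-likelihood test on UMIs summed per tumour, with p-values adjusted by the Benjamini-Hochberg method over 8273 genes and a call at an adjusted p under 0.05. The last day was day 10 in SCC31, 16 in SCC40 and 20 in the non-rejected lines. Averaged over the 5 lines, 3 of the 5 genes were called, all lower, against 14.3% of all genes tested (8.52% lower and 5.78% higher). Arg1 fell by 2.32 on the log2 scale (SE 0.52, adjusted p = 0.00198). Each line had the same weight in this average, and SCC40 entered with −4.12 on 33 Arg1 UMIs at day 6 and 1 at day 16. Within lines Arg1 was called in SCC35, where it fell by 4.42 (SE 0.78, adjusted p = 0.000435; 5.16% of genes called), from 506 UMIs at day 6 to 27 at day 20. Its size rested in part on day 6 tumour 3 of the mix library, the highest of that day: without that tumour the log2 difference was −3.17 (edgeR adjusted p = 0.0141), and without the mix library it was −3.26 and not called (adjusted p = 0.0713). In SCC32 the difference was −3.14 (SE 0.99, adjusted p = 0.0672, with 4.39% of genes called). It was −3.24 and called with a replicate block, a term for tumours of the same number in a line (edgeR adjusted p = 0.0226). Over 9 other settings, the block among them, the SCC32 difference ran from −4.55 to −2.86 and stayed uncalled in 5. With 1 tumour left out at a time it ran from −9.49 to −2.09. The Arg1 difference was −4.12 in SCC40 (SE 2.12, adjusted p = 0.319, 3.82% called) and −0.73 in SCC37 (SE 0.79, adjusted p = 0.819, 1.11% called). SCC31, with 1 tumour per day, had a pooled ratio of 1.74 (counting interval 1.51 to 2.01) and no test. In tumour sums, fewer cells of a type and less RNA per cell cannot be told apart. Among myeloid cells with at least 1000 UMIs, thinned to 1000, the share with an Arg1 UMI had a median of 9.84% over 11 day 6 tumours (0 to 22.8%). Over 10 last-day tumours that median was 1.84% (0 to 33.7%).

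**Figure D2:**
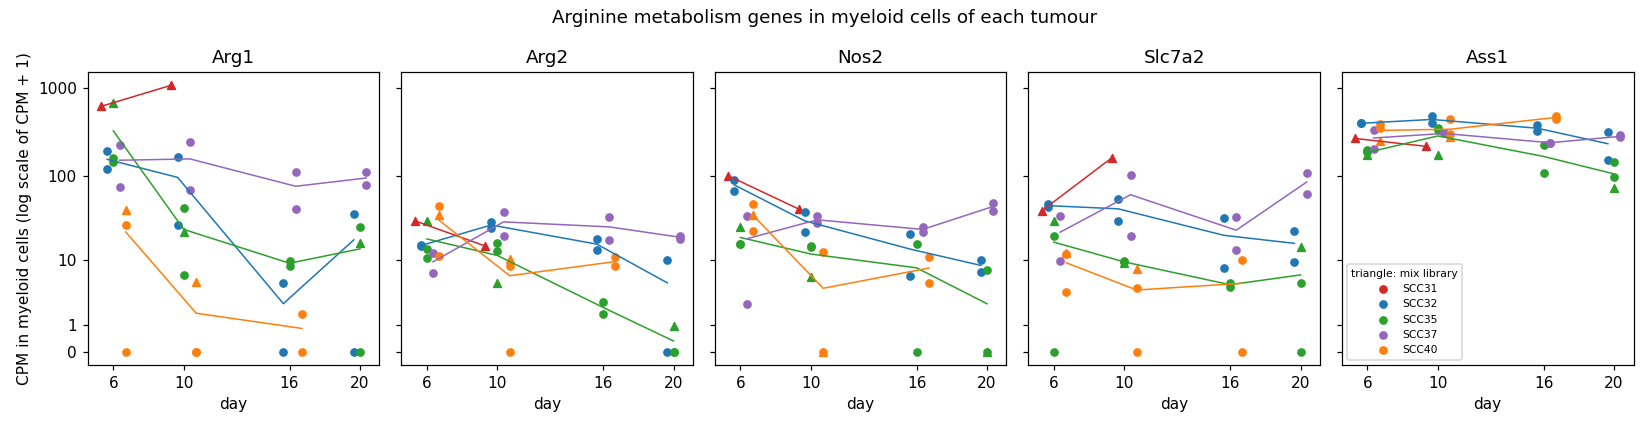
CPM of the 5 genes in myeloid cells (vertical axis, log scale of CPM plus 1) by day (horizontal axis). A point is a tumour with at least 20 myeloid cells, a triangle one of the mix library, and lines join the means of a line's tumours. Arg1 in SCC35 went from 145.1 to 672 CPM at day 6 to 0 to 25.04 CPM at day 20, while in SCC37 it was 74.8 to 225.6 CPM at day 6 and 77.6 to 110.2 CPM at day 20.

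Arg2, the mitochondrial arginase gene, was low in every tumour and fell in SCC35. Its SCC35 values were 10.6, 13.9 and 30.02 CPM at day 6, 16.3, 13.1 and 4.98 at day 10, 2.67 and 1.71 at day 16, and 0, 0 and 0.961 at day 20, and the first and last days did not overlap. The change there was −4.66 (SE 0.94, edgeR adjusted p = 0.00182), from 27 UMIs to 1. Without the mix library the difference was larger, −5.65, and not called (edgeR adjusted p = 0.0900). SCC40 had 11.4, 44.3 and 35.03 CPM at day 6 and 10.9 and 8.35 at day 16, SCC32 had 15.4 and 14.8 at day 6 and 10.1 and 0 at day 20, and SCC31 had 29.96 and 14.97 at days 6 and 10. In SCC40 and SCC32 too every last-day tumour lay below every day 6 tumour, and in neither was the difference called. SCC31, with 1 tumour per day, had a pooled ratio of 0.50 (counting interval 0.128 to 1.42) and no test. SCC37 differed in direction, with 12.3 and 6.80 CPM at day 6 and 18.4 and 19.8 at day 20 (log2 difference 0.95, SE 0.76, adjusted p = 0.712). Averaged over lines, Arg2 fell by 1.59 (SE 0.39, edgeR adjusted p = 0.00433). Both the Arg1 and the Arg2 call in the average kept an adjusted p under 0.05 when any of the 37 tumours was left out (up to 0.0274 and 0.0397).

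Nos2, the nitric oxide synthase gene, followed the direction of Arg2 in each line. SCC32 had 90.0 and 66.5 CPM at day 6, 37.6 and 22.1 at day 10, 6.24 and 21.1 at day 16 and 10.1 and 7.04 at day 20. The day 6 tumours were the highest, and the fall from day 6 to day 20 was 3.19 on the log2 scale (SE 0.76, edgeR adjusted p = 0.0109), or 9.55-fold in pooled UMIs (counting interval 4.52 to 24.2). With 1 tumour fewer the log2 difference was of similar size but not called by edgeR: it was −2.93 without day 6 tumour 1 (adjusted p = 0.115), −3.404 without day 20 tumour 1 (0.0661) and −2.94 without day 20 tumour 2 (0.212). SCC40 had 22.9, 47.3 and 35.03 CPM at day 6 and 10.9 and 5.01 at day 16 (log2 difference −2.21, SE 0.86, adjusted p = 0.160). SCC35 had 15.9, 15.9 and 25.01 CPM at day 6 and 7.51, 0 and 0 at day 20 (−3.28, SE 1.005, adjusted p = 0.0504). This SCC35 difference was called by DESeq2 (−3.27, adjusted p = 0.0470) and with a replicate block (−3.44, edgeR adjusted p = 0.0276). Over 9 other settings, those 2 among them, it ran from −3.50 to −1.71 and stayed uncalled in 4 (edgeR or DESeq2 adjusted p up to 0.544). With 1 tumour left out at a time it ran from −6.54 to −2.12 and stayed uncalled in 25 of 37 fits (edgeR adjusted p up to 0.349). SCC31 had 99.9 CPM at day 6, the highest Nos2 value of any tumour, and 41.2 CPM at day 10. SCC37 again went the other way without a call, from 2.45 and 34.0 CPM to 39.4 and 48.7 CPM (1.46, SE 0.78, adjusted p = 0.495). The average fall over lines was 1.70 (SE 0.40, edgeR adjusted p = 0.00317), and without SCC37 day 6 tumour 2 it was 1.15 and not called (adjusted p = 0.296).

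Slc7a2, the arginine transporter gene, did not move one way. It was higher at the last day in SCC31, from 38.9 CPM to 160.9 CPM (pooled ratio 4.13, counting interval 2.62 to 6.55, 1 tumour each), and in SCC37, from 9.81 and 34.0 CPM to 107.6 and 61.3 CPM (log2 difference 2.01, SE 0.72, edgeR adjusted p = 0.226). The SCC37 tumours of days 6 and 20 did not overlap, and day 10 tumour 2 of that line already had 100.8 CPM. In SCC32 it was lower, 47.2 and 42.9 CPM at day 6 against 22.8 and 9.39 CPM at day 20 (−1.51, SE 0.74, adjusted p = 0.289). SCC35 had 0, 19.9 and 30.02 CPM at day 6 and 5.01, 0 and 14.4 at day 20, and SCC40 stayed at or below 12.2 CPM at all days. The average over lines was 0.20 (SE 0.40, adjusted p = 0.819), and −0.24 without SCC31.

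Ass1, the synthesis gene, varied least between tumours, from 71.1 to 482.6 CPM. SCC35 had 186.0, 194.8 and 173.4 CPM at day 6 and 97.6, 145.3 and 71.1 at day 20, without overlap (log2 difference −0.89, SE 0.31, edgeR adjusted p = 0.0990). SCC40 had 392.2, 348.6 and 248.2 CPM at day 6 and 449.6 and 479.0 at day 16, also without overlap and in the other direction (0.61, SE 0.30, adjusted p = 0.298). SCC32 had 396.2 and 399.0 CPM at day 6 and 314.1 and 150.2 at day 20 (adjusted p = 0.196), SCC37 203.6 and 336.7 against 275.4 and 288.5 CPM, and SCC31 266.6 and 217.1 CPM at days 6 and 10. No line and not the average (−0.25, SE 0.16, adjusted p = 0.342) passed the test, but with a replicate block SCC35 did (−0.92, edgeR adjusted p = 0.0278).

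**Figure D3:**
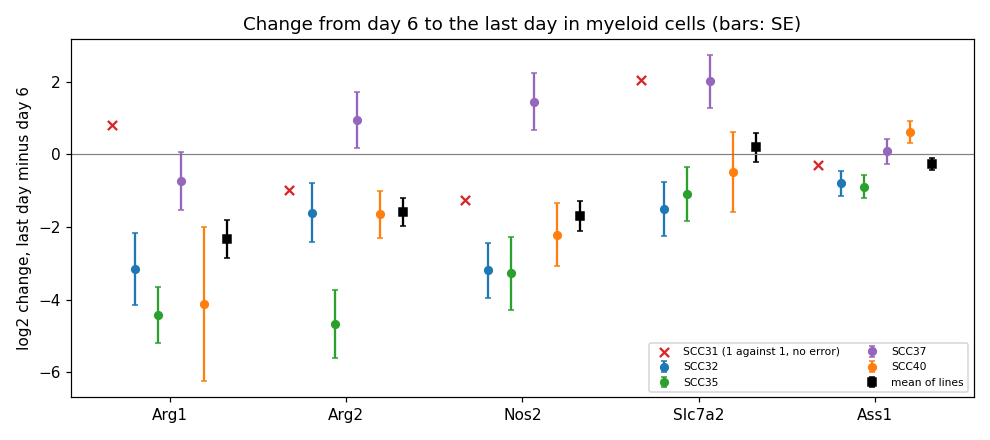
Log2 change of each gene from day 6 to the last sampled day (vertical axis) by gene (horizontal axis), from edgeR. Circles are single lines and black squares the mean of the 5 lines, with bars of 1 standard error, and crosses are SCC31 with 1 tumour per day and no error. Arg1, Arg2 and Nos2 averaged −2.32, −1.59 and −1.70, with SCC37 above 0 for Arg2 (0.95) and Nos2 (1.46).

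Whether the time change itself differed between the 4 lines with replicates was tested by an interaction term, chosen after the values had been seen. None of the 5 genes passed, against 0.411% of all genes. Nos2 came nearest (F = 7.72, edgeR adjusted p = 0.0893), followed by Arg2 (F = 6.83, adjusted p = 0.141). By edgeR's unadjusted p all 5 were under 0.05: 0.000518 for Nos2, 0.00111 for Arg2, 0.00470 for Ass1, 0.00796 for Slc7a2 and 0.0227 for Arg1. The share of all genes under 0.05 by that p was not taken, so the 5 have no background to be set against. The term asks whether any of the 4 lines differ, and SCC37 against the others was not tested on its own.

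The make-up of the myeloid cells changed over the same days. Ly6c2-high cells were 47.7% of a tumour's myeloid cells at day 6 (median of 11 tumours, 25.9 to 56.0%) and 15.7% at the last day (10 tumours, 2.79 to 42.9%). C1q-high cells were 9.50% (4.31 to 25.4%) and 54.9% (17.5 to 84.0%). The median UMI count per myeloid cell of a tumour went from 1676 (1093 to 2367) to 2936 (1936 to 5138), and the summed dendritic markers from 242.4 CPM (44.2 to 342.7) to 98.2 CPM (18.03 to 355.3). The summed neutrophil markers were 78.2 CPM (47.3 to 426.9) and 46.1 CPM (25.9 to 908.2). NK cell markers went from 76.2 CPM (11.7 to 726.7) to 7.43 CPM (2.504 to 184.9) and endothelial markers from 45.8 CPM (29.8 to 100.3) to 21.1 CPM (14.5 to 39.7). Of 7 neutrophil markers, 5 were tested and 1 was called lower, and of 7 dendritic markers 6 were tested and 2 were called lower, against 8.52% of all genes lower. On counts this small the lists cannot be set apart from all genes. The part of these shifts in the falls of Arg1, Arg2 and Nos2 was not tested.

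Arg1 was called between the lines at both early days in the main fit. SCC31 entered with 1 mix-library tumour per day. Tumours 1 and 2 of the other lines came from a library of that line alone, so these tests cannot tell line and library apart. Among the 5 lines at day 6, 2 of the 5 genes were called, Arg1 (F = 8.64, edgeR adjusted p = 0.00573) and Nos2 (F = 6.45, adjusted p = 0.0217), against 4.87% of all genes. At day 10 they were Arg1 (F = 19.9, adjusted p = 3.77e-05) and Slc7a2 (F = 12.5, adjusted p = 0.000772), against 6.31%. The day 6 call of Arg1 was lost with DESeq2 (adjusted p = 0.14) and without the mix library (edgeR adjusted p = 0.0584), and that of Nos2 without SCC32 day 6 tumour 1 (0.0785) or SCC35 day 6 tumour 2 (0.0666). Within the mix library, where 1 tumour of each of 3 lines was processed together, Arg1 at day 6 was 620.1 CPM in SCC31, 672 in SCC35 and 39.6 in SCC40. At day 10 it was 1082, 22.2 and 5.21 CPM. SCC31 and SCC35 were thus both high at day 6, and SCC31 alone was high at day 10. Slc7a2 in the same day 10 tumours was 160.9, 9.20 and 7.81 CPM, and Nos2 41.2, 6.13 and 0 CPM. With 1 tumour per line these within-library values carry no test.

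In the order of mean Arg1 level over the 17 groups of line and day, SCC31 at days 10 and 6 came first, followed by SCC35 at day 6 (325.5 ± 300.2 CPM, SD, n = 3), SCC37 at day 10 (155.6 ± 122.8, n = 2) and SCC32 at day 6 (153.7 ± 50.1, n = 2). The lowest were SCC32 at day 16 (2.51 ± 3.56, n = 2), SCC40 at day 10 (1.74 ± 3.01, n = 3) and SCC40 at day 16 (0.835 ± 1.18, n = 2). Neighbours in this order rarely separated: where both had at least 2 tumours, the tumours of 1 of 14 neighbour pairs did not overlap for Arg1, and 1 of 12, 1 of 13, 0 of 13 and 1 of 12 for Arg2, Nos2, Slc7a2 and Ass1.

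Rejected and non-rejected lines were compared at days 6 and 10 on the log2(CPM + 1) scale with the line as the unit. For Arg1 the line values were 9.68 (SCC31) and 2.13 (SCC40) among rejected lines and 6.66 (SCC32), 6.13 (SCC35) and 7.03 (SCC37) among non-rejected lines. The rejected lines were thus the highest and the lowest of the 5. The differences, rejected minus non-rejected, were −0.70 for Arg1 (two-sided exact permutation test, p = 0.8), −0.11 for Arg2, 0.02 for Nos2, −0.10 for Slc7a2 and −0.08 for Ass1 (each exact p = 1). With 5 lines the smallest possible p is 0.2.

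Between the 2 cell classes of the same tumour, Arg1 was higher in C1q-high cells and Ass1 in Ly6c2-high cells. Both classes had at least 20 cells in 19 tumours, and edgeR was run on their sums with the tumour as a block. Only Arg1 and Ass1 passed the filter on low counts, and both were called, 1 higher and 1 lower in C1q-high cells, against 38.5% of 2015 genes (17.6% higher and 20.8% lower). Arg1 had a median of 96.0 CPM (0 to 2304) in C1q-high cells and 27.8 CPM (0 to 334) in Ly6c2-high cells. It was higher in C1q-high cells in 12 tumours, lower in 6 and at 0 in both in 1. The largest gap was in SCC31 at day 6 (2304 against 129.9 CPM) and the largest in the other direction in SCC37 day 6 tumour 2 (0 against 119.2 CPM). The fitted difference was 1.54 on the log2 scale (SE 0.38, edgeR adjusted p = 0.00191). C1q-high cells were deeper (median 2972.5 UMIs against 1883), and after thinning to 1000 UMIs the share of Arg1-positive cells had medians of 5.26% and 3.48% and was higher in C1q-high cells in 13 tumours and lower in 4. Under 5 other settings, given with the processing alternatives, Arg1 did not pass the filter and was not tested. With 1 of the 37 tumours left out at a time, Arg1 was tested in 31 of 37 fits and called in each of those.

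Ass1 had a median of 177.9 CPM (57.6 to 436.9) in C1q-high cells and 445.3 CPM (206.7 to 833.7) in Ly6c2-high cells, and it was lower in C1q-high cells in 18 of 19 tumours. The fitted difference was −1.25 (SE 0.16, edgeR adjusted p = 3.58e-07). The thinned share of positive cells was 13.4% against 38.0% (medians) and was lower in C1q-high cells in 19 of 19 tumours. Arg2 was lower in C1q-high cells in 15 of 19 tumours (medians 10.0 and 25.3 CPM), Nos2 in 12 (9.60 and 27.9 CPM) and Slc7a2 in 9, with 9 higher (24.1 and 21.02 CPM). Over all cells, those with both Ly6c2 and C1q had the highest pooled Arg1 level, 182.5 CPM (counting interval 169.0 to 196.8) with 16.3% positive, against 146.7 CPM in cells with neither, 77.1 in C1q-high and 76.5 in Ly6c2-high cells. These pooled values weight tumours by their cells, and SCC31 gave 269 of the 677 Arg1 UMIs of the cells with both. By the median over tumours with at least 20 such cells the order was another: 48.3 CPM in C1q-high cells (27 tumours), 43.4 in cells with neither (28), 40.5 in cells with both (20) and 15.95 in Ly6c2-high cells (28).

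**Figure D4:**
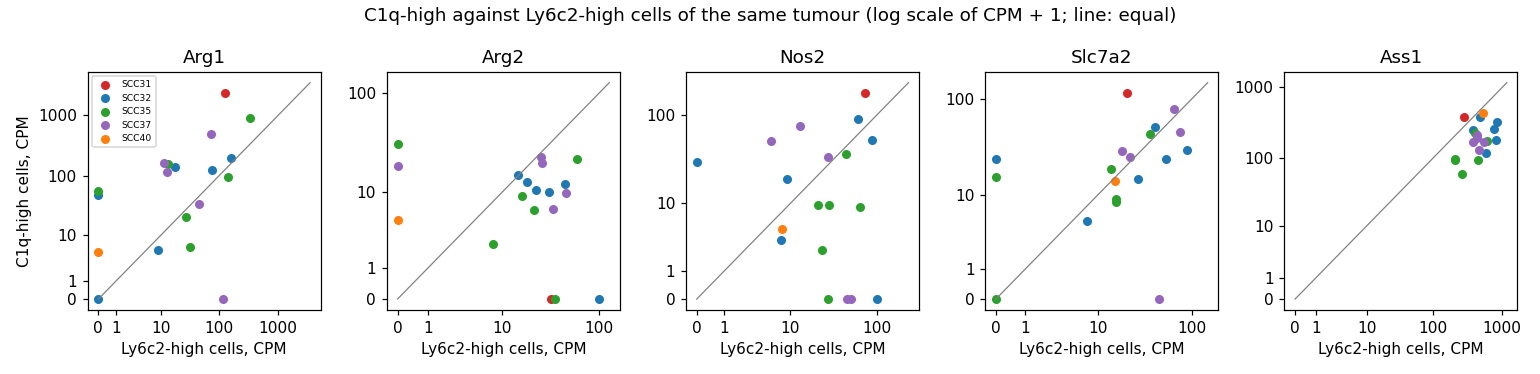
CPM in C1q-high cells (vertical axis) against CPM in Ly6c2-high cells (horizontal axis) of the same tumour, both on a log scale of CPM plus 1, for the 19 tumours with at least 20 cells of each. A point is a tumour and the grey line marks equal levels. Ass1 lay below the line in 18 of 19 tumours and Arg1 above it in 12.

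Within either class the change over time rested on few tumours. In Ly6c2-high cells first and last days could be compared in SCC37 (2 against 1 tumour) and SCC40 (3 against 2), and edgeR called none of the 5 genes, against 1.09% of 3949 genes. Arg1 had a difference of −4.21 (SE 1.65, edgeR adjusted p = 0.241), Arg2 of −1.62 (SE 1.35, adjusted p = 0.677) and Nos2 of −0.55 (SE 1.12, adjusted p = 0.909). By edgeR's unadjusted p, Arg1 (0.0168) and Ass1 (0.61 higher, 0.0135) were under 0.05. The share of all genes under 0.05 by unadjusted p was not taken there either. In C1q-high cells the lines were SCC32, SCC35 and SCC37, 4 of the genes passed the filter and none was called, against 1.62% of 6546 genes and with no unadjusted p under 0.05. The Arg1 difference there was 0.51 (SE 2.82, adjusted p = 0.973). SCC37 had 1 tumour at day 6 in that comparison, tumour 2, whose 22 C1q-high cells held no Arg1 UMI. Without it SCC37 dropped out, and Arg1 was called lower (−3.47, edgeR adjusted p = 0.00178). Arg1 was also called lower by edgeR with the stricter gate (−4.02, adjusted p = 0.000632) and without cells of other markers (−3.49, 0.000246). Each of these settings left that tumour with too few cells and SCC37 out. With at least 50 cells the SCC32 day 6 tumours were also too small. The Arg1 difference of −5.52 there rested on SCC35 alone. Arg1 was negative and not called with DESeq2 (−0.55) and with a hashtag ratio of 4 (−0.0266).

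Nos2 was found in Arg1-positive cells as well as in Arg1-negative ones. In 6 tumours with at least 20 cells of each kind, thinned to 1000 UMIs, the shares of cells with a Nos2 UMI were 15.6% of Arg1-positive and 8.58% of Arg1-negative cells in SCC31 day 6 tumour 3, 10.7% and 3.64% in SCC31 day 10 tumour 3, and 18.2% and 6.39% in SCC32 day 6 tumour 1. They were 0% (of 33 cells) and 7.28% in SCC32 day 6 tumour 2, 4.44% and 2.22% in SCC35 day 6 tumour 3, and 4.55% and 2.92% in SCC37 day 10 tumour 2. The Arg1-positive cells had the higher share in 5 of 6 tumours, by 3.75 percentage points on average (SD 6.56), which did not pass a two-sided exact permutation test that flips signs per tumour (p = 0.219, smallest possible 0.0313). Counted over all myeloid cells without thinning, 12.5% of 575 Arg1-positive and 3.91% of 6393 Arg1-negative cells had a Nos2 UMI, at median depths of 2377 and 2238 UMIs. For Slc7a2 these shares were 18.4% and 3.74%, for Arg2 6.26% and 3.895%, and for Ass1 40.9% and 40.7%. They mix tumours that differ in all of these genes.

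Of 33 further genes of arginine, polyamine, proline and tetrahydrobiopterin metabolism, 22 were tested over time, and 2 were called higher and 2 lower in the average of lines, against 5.78% of all genes higher and 8.52% lower (median 0.27, against −0.02 for all genes). With 14.3% of all genes called, 4 of 22 sets the list little apart, and the called members are given as single genes. Gatm, which uses arginine for creatine synthesis, rose by 1.08 (SE 0.22, edgeR adjusted p = 0.000737), with a median of 60.9 CPM in 11 day 6 tumours and 142.9 CPM in 10 last-day tumours. Qdpr, which recycles tetrahydrobiopterin, the cofactor of nitric oxide synthase, rose by 0.89 (SE 0.29, adjusted p = 0.0371). Gch1, which starts the synthesis of that cofactor, fell by 0.65 (SE 0.16, adjusted p = 0.00569), and Azin1, an activator of ornithine decarboxylase, fell by 0.56 (SE 0.14, adjusted p = 0.00628). Between cell classes 5 of the 33 were tested: Odc1, the ornithine decarboxylase gene, was higher in C1q-high cells by 0.79 (SE 0.13, adjusted p = 1.79e-05) and Gch1 lower (−0.71, SE 0.18, adjusted p = 0.00270), against 38.5% of all genes called.

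Interferon gamma response genes were mostly lower at the last day, and alternative activation genes went both ways. Of 14 genes of alternative activation, 13 were tested over time, with 3 higher and 3 lower (median −0.26), against 5.78% of all genes higher and 8.52% lower. Mgl2, a lectin gene, rose by 2.47 (SE 0.26, edgeR adjusted p = 4.22e-08), Trem2 by 1.24 and the mannose receptor gene Mrc1 by 0.93, while Pdcd1lg2 fell by 1.28 and Cebpb by 0.36. Of 15 interferon gamma response genes, 14 were tested, with 10 lower and 1 higher (median −0.80), against the same shares. Gbp2, a guanylate-binding protein gene, fell by 1.73 (SE 0.14, adjusted p = 1.92e-10), from a median of 978.6 to 277.5 CPM. Socs1 fell by 1.69, Gbp5 by 1.22, Irf1 by 1.07 and Cd274 by 1.004, and H2-Ab1, named as the only member called higher, rose by 0.86. Of 12 hypoxia and glycolysis genes, 11 were tested and 2 were lower (median −0.04), a count too small to set apart from the 8.52% of all genes that were lower. They were Hif1a by −0.89 (SE 0.11, adjusted p = 7.06e-07) and Hk2 by −0.62. Between cell classes 17.6% of all genes were higher and 20.8% lower, with a median near 0. There the alternative activation list had 5 tested, 1 higher (Mrc1, 2.17) and 2 lower (Chil3, −4.63, and Cebpb, −0.68), at a median of −0.66. The interferon gamma list had 12 tested, 1 higher and 7 lower (median −0.42). Gbp2 (−0.95), Cxcl10 (−0.9998), Gbp5 (−1.11) and Cd274 (−0.50) were lower in C1q-high cells and H2-Ab1 was higher (0.48). The hypoxia list had 9 tested and 3 lower (median −0.22), Slc2a1 by −0.78, Hif1a by −0.54 and Pgk1 by −0.33, a share below the 38.5% called among all genes.

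The genes whose levels over the 37 tumours were most like each arginine gene were ranked by Pearson's r of log2 CPM, centred on the library, among 5483 or 5484 genes, as a description. The tumours share libraries and depth, and their line and day. For Arg1 they were Hif1a, the hypoxia-inducible factor gene (r = 0.80), Atp5mpl (0.75), Atp5l (0.72), Tarm1 (0.72) and the glycolysis gene Pgk1 (0.72). For Arg2 they were the spermine oxidase gene Smox (0.84), Itga5 (0.82), AA467197 (0.80), Il1rn (0.79) and Adora2b (0.79), and for Nos2 Lilr4b (0.81), Atp5md (0.78), AA467197 (0.78), Sdc4 (0.77) and Lpp (0.74). For Slc7a2 they were AA467197 (0.66), N4bp1 (0.65), Nos2 (0.64), Trpc4ap (0.63) and Ndufv3 (0.62). For Ass1 they were Ly6i (0.82), Atox1 (0.78), Clec4e (0.75), Acod1 (0.75) and Prdx5 (0.75). Among the 5 genes themselves, r ran from 0.30 (Arg1 and Ass1) to 0.70 (Arg2 and Nos2).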

How the data were processed

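The deposited matrices held raw UMI counts per gene and cell barcode with no normalisation. The submitters' processing notes name Cell Ranger 6.0.0 and mm10. The annotation release is not given in the sources used here, and symbols and identifiers were taken from the files. Cells with at least 300 genes, at most 15% mitochondrial counts and no hashtag doublet (second tag at least 10 counts and the first under 2 times as many) were kept, and Scrublet (scanpy 1.11.5, expected rate 0.08) removed further doublets. Of 80184 barcodes 55386 cells were kept, and 55243 had 1 hashtag with at least 10 counts and 2 times the next. Median depths per library ran from 2090 to 6286 UMIs.

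UMIs were summed per hashed tumour with at least 20 cells and tested with edgeR 4.0.16 (TMM, filterByExpr, quasi-likelihood) in R 4.3.3, all tumours in 1 fit with a mean per line and day. DESeq2 1.42.0 was an alternative. Permutation tests used scipy 1.17.1 in Python 3.11.15. On simulated data the time comparison recovered 196 of 200 genes changed by 1.5 on the log2 scale, with 9 false calls among 8052 genes. The class comparison recovered 98 of the 98 changed genes that passed its filter, with 5 false calls among 2175 genes. The simulation gave every gene the same spread, had no library effect and changed only genes above a minimum expected count. It therefore does not measure recovery or error for the arginine genes. The 5 genes were always named. Of each list, the called genes with the smallest adjusted p were named, at most 5 per comparison and H2-Ab1 besides, as were the 5 genes most like each arginine gene. The genes, lists and tests were chosen with earlier results of these data known. Tumours with the same number were not treated as pairs: over 46 pairs of tumours the correlation of their deviations had a median of 0.0328 (−0.131 to 0.438), and 7 were over 0.1. Where both days had 2 tumours, the deviations mirror each other and the pairs repeat a value. The 46 pairs are thus not independent, and the median and the count over 0.1 hold repeats. The 4 pairs of number 3, which shared the mix library, had the highest values (0.255 to 0.438), so fits with a replicate block are given beside the calls they changed. Whether replicate tumours came from separate experiments is not stated, so the p-values measure the spread between these tumours. The other marker lists summed, over all myeloid cells, to 184.2 CPM (fibroblast), 60.9 (NK), 36.9 (endothelial), 24.8 (melanocytic), 18.3 (T), 3.33 (mast or basophil) and 0.913 (B).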

Additional observations from a re-analysis of the deposited data

Results flagged for a closer look

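Nos2 was above its day 0 level in tumour cells without Ptprc, which none of the comparisons used. In those cells Nos2 was at 4.85 CPM in SCC31 tumours (0 in day 0 cells of the line), 4.15 in SCC32 (0.108 at day 0), 0.795 in SCC35 (0 at day 0), 2.48 in SCC37 (0 at day 0) and 2.97 in SCC40 (0.0559 at day 0). Day 0 cells had no mouse and 9 of 7049 of them met the myeloid definition, so they are no measure of free myeloid RNA. T cells of the tumours had 0 CPM of Nos2 in SCC31, 0.996 in SCC32, 0 in SCC35, 5.08 in SCC37 and 1.24 in SCC40, and 1.16 over all lines, against 2.14 in the cells without Ptprc over all lines. Whether the cells without Ptprc express Nos2 was not tested. Arg1 was at 959.4 CPM (counting interval 537 to 1582) in myeloid cells of SCC31 day 6 tumour 1, which had 9 such cells, too few for the comparisons, and which came from the SCC31 library and not the mix library.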

How the results depend on the processing

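The average falls of Arg1, Arg2 and Nos2 in myeloid cells stayed called under all 10 other settings (adjusted p up to 0.0241, 0.0167 and 0.0313 by edgeR or DESeq2), which were RLE normalization, DESeq2, no low-count filter, stricter gates (at least 2 UMIs of Tyrobp and Lyz2), leaving out cells with neutrophil or dendritic UMIs, at least 50 cells, a hashtag ratio of 4, no mix library, a replicate block, and no SCC31 (chosen after seeing the data).
The count of genes called in the average lay between 985 and 1361 under these settings. With the replicate block, in which tumours of the same number in a line were blocked, 3 arginine genes were called in the average, 2 in SCC32, 4 in SCC35, 201 genes in SCC37 and 95 genes in Ly6c2-high cells over time, and the block moved no other call count by more than 1.5 times. The arginine genes it added were Arg1 in SCC32 (edgeR adjusted p = 0.0226), Nos2 (0.0276) and Ass1 (0.0278) in SCC35, Ass1 between lines at day 6 (0.0453) and Nos2 at day 10 (0.0482). Without the mix library 711 genes were called in SCC32 (2 arginine genes), 269 in SCC35 (0 arginine genes), 236 in SCC37, 1526 between lines at day 6, 911 at day 10, 94 over time in Ly6c2-high and 210 in C1q-high cells. Without the low-count filter, which changes how the spread is estimated, 3 arginine genes were called in SCC32, 4 in SCC35, 1 in SCC37, 2 in SCC40, 4 between lines at day 6, 4 at day 10 and 1 over time in Ly6c2-high cells, and the gene counts were 220 (SCC37), 870 (day 6), 936 (day 10), 73 (Ly6c2-high) and 180 (C1q-high). With DESeq2 the arginine genes called were 0 in SCC32, 0 between lines at day 6 and 1 at day 10, and 68 genes were called in Ly6c2-high cells. A hashtag ratio of 4 gave 2 arginine genes in SCC32, and the stricter gate gave 151 genes at day 6 and a log2 difference of 1.17 for Arg1 in SCC31. Without cells of other markers 100 genes were called in Ly6c2-high and 214 in C1q-high cells, and with at least 50 cells 32 in C1q-high cells. Over time in C1q-high cells, 2 arginine genes were called with the stricter gate and 2 without cells of other markers, settings that leave SCC37 out. With at least 50 cells SCC32 dropped out as well, which leaves SCC35 alone. Arg1 there was −0.55 with DESeq2, −4.02 with the stricter gate, −3.49 without cells of other markers, −5.52 with at least 50 cells and −0.0266 with a hashtag ratio of 4. Nos2 was −4.01, −3.91, −3.79 and −0.96 under the last 4 of these, Slc7a2 −0.69, −0.80 and −1.86 under the stricter gate, without other markers and with at least 50 cells, and Ass1 0.0388 without the filter and 0.11 without the mix library. Slc7a2 averaged over lines in all myeloid cells was −0.45 without the mix library and −0.24 without SCC31. Between C1q-high and Ly6c2-high cells 275 genes were called with at least 50 cells and 402 after thinning to 1000 UMIs, and 1 arginine gene (Ass1) was called with at least 50 cells, after thinning, with the stricter gate, without the mix library and with at least 4 UMIs of Ly6c2 and 6 of C1q, since Arg1 did not pass the filter there. Between rejected and non-rejected lines the sign turned with a pseudocount of 10 for Arg1 (0.0945), Arg2 (0.0375) and Slc7a2 (0.10), without cells of other markers for Slc7a2 (0.0333), and with a hashtag ratio of 4 for Nos2 (−0.21) and Slc7a2 (0.0070). The cause of these shifts was not tested. The share of all genes called was not worked out for these settings, so their counts of arginine genes cannot be set against a background.

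Leaving out 1 tumour at a time gave 28 to 444 genes called in SCC32 (0 to 2 arginine genes), 225 to 483 in SCC35, 3 to 109 in SCC37 and 0 to 387 in SCC40. It gave 219 to 698 between lines at day 6 (1 to 2 arginine genes), 306 to 651 at day 10, 11 to 66 over time in Ly6c2-high cells and 66 to 188 in C1q-high cells (0 to 1 arginine genes). Between the cell classes 686 to 820 genes were called (1 to 2 arginine genes), and in the average over lines 1014 to 1379 (2 to 3 arginine genes). Log2 differences that turned sign ran from −0.86 to 0.42 (Slc7a2, average), −1.24 to 0.31 (Arg1, SCC37), −0.25 to 0.52 (Ass1, SCC37) and −5.72 to 0.14 (Slc7a2, SCC40). In Ly6c2-high cells they ran from −1.25 to 1.66 (Nos2) and −0.71 to 1.79 (Slc7a2), and in C1q-high cells from −3.47 to 1.22 (Arg1), −3.01 to 1.08 (Nos2), −0.74 to 2.61 (Slc7a2) and −0.44 to 0.0832 (Ass1). Between outcomes they ran from −0.35 to 0.17 (Arg2), −0.29 to 0.34 (Nos2) and −0.60 to 0.41 (Slc7a2).

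Depth limits the less abundant genes: a tumour with a count of 0 could hold up to 18.9 CPM of Arg1, Arg2, Nos2 or Slc7a2, and Arg2, Nos2 and Slc7a2 had too few counts to be tested between the cell classes.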
